A study of Mus musculus with 6 samples.

Results

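The genes described here were 10 genes that take up arginine, split or oxidise it, rebuild it from citrulline, and carry its ornithine into polyamines, namely Slc7a2, Arg1, Arg2, Nos2, Ass1, Asl, Odc1, Oat, Sat1 and Azin1. They were picked by symbol, with the difference between the groups already known, out of 18182 genes in the files, and all 10 had a row. Their differences between the groups are therefore given as a description, without a test.

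Expression was measured by RNA sequencing of LLC-RFP cells, the mouse Lewis lung carcinoma line with a red fluorescent protein. The cells had been injected under the skin of C57BL/6 wild type mice. Cells positive for the red fluorescent protein were sorted by flow cytometry from the tumours that grew. In 3 libraries the mice had received LLC-RFP cells only (LLC alone), and in 3 libraries LLC-RFP cells together with bone marrow-derived mesenchymal stem cells (LLC with BMSCs), which came from C57BL/6 mice through a supplier. The purity of the sort was not given in the sources used here, so sorted material could still hold some host cells or injected BMSCs. The labels do not say whether a library was 1 mouse or a pool.

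Arginine has several competing uses. Inducible nitric oxide synthase (Nos2) oxidises it to nitric oxide and citrulline, and argininosuccinate synthase (Ass1) with argininosuccinate lyase (Asl) turn citrulline back into arginine. The arginases (Arg1 in the cytosol, Arg2 in mitochondria) split it into urea and ornithine, which ornithine aminotransferase (Oat) sends toward proline or glutamate and ornithine decarboxylase (Odc1) commits to polyamines, small cations that dividing cells need. In tumours, this pathway is best known from macrophages and related myeloid cells, which take arginine up through the cationic transporter encoded by Slc7a2.

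For 4 of the 10 genes (Ass1, Odc1, Oat and Sat1) RefSeq promoter windows of build GRCm38.p6 were at hand, each holding the 250 bases before the RefSeq start of the gene. Slc7a2, Arg1, Arg2, Nos2, Asl and Azin1 had no entry. The windows of Ass1, the gene with the largest difference among the 4, of Odc1, the most abundant of the 10 genes, of Sat1, the gene with the largest fitted decrease, and of Oat, which held a match, are shown 5′ to 3′ on the strand of the gene, with capitals for a match to a searched motif. They lie at chr2:31470020-31470269 (plus strand), chr12:17544623-17544872 (plus strand), chrX:155216450-155216699 (minus strand) and chr7:132576399-132576648 (minus strand).
Ass1: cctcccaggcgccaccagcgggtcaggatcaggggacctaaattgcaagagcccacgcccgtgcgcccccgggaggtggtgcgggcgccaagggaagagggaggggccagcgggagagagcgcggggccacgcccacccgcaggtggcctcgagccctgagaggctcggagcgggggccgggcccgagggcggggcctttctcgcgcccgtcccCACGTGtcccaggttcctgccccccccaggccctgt
Odc1: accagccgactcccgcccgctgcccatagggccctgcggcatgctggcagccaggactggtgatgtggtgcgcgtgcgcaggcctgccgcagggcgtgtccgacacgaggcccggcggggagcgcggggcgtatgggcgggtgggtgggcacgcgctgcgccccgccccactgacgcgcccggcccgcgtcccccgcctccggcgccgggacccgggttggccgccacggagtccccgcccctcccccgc
Sat1: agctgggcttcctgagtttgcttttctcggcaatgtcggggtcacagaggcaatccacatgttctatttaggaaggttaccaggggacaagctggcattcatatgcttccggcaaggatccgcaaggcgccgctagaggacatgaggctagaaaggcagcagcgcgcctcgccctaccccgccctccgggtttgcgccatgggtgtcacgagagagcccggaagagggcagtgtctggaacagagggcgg
Oat: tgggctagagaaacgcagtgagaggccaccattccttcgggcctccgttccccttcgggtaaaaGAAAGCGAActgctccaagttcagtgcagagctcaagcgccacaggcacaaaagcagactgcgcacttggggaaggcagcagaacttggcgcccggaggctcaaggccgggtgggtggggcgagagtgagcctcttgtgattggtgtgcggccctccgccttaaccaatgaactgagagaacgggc
The motifs searched on both strands were CACGTG (the E-box bound by MYC family proteins), TTCNNNGAA (the STAT element), GAAANNGAA (an interferon-type element), TGATGNAA (an ATF4-type element) and TATAAA. Over the 4 windows the search found 2 matches, which do not overlap any other motif. They were CACGTG in Ass1, 36 to 31 bases before the start, and GAAANNGAA in Oat, 186 to 178 bases before it. Among all 32851 windows of that length, CACGTG stood in 6.02%, TTCNNNGAA in 7.02%, GAAANNGAA in 7.13%, TGATGNAA in 3.45% and TATAAA in 12.4%. The RefSeq starts of Ass1 and Odc1 lie inside the GENCODE extent of these genes given with their values. A match is a string of letters and not a shown binding site.

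The libraries held 33476347 to 46189113 estimated counts. A trend over gene length followed the groups. In the shortest of 5 equal bins of genes, LLC alone stood 0.06, 0.04 and 0.30 log2 units from the mean of the libraries. LLC with BMSCs stood there at -0.19, -0.08 and -0.10. In the longest bin the values were -0.03, -0.01 and -0.38 against 0.19, 0.12 and 0.14. LLC alone replicate 3 was the most extreme. This trend cannot be told apart from the difference between the groups. LLC alone replicates 1 and 2, and LLC with BMSCs replicates 2 and 3, resembled each other more than other pairs did (chi-square per gene 4.61 and 2.94, against 18.1 to 57.2), though they still differed by more than sampling noise. Much of the transcriptome differed between the groups: edgeR's quasi-likelihood test with Benjamini-Hochberg adjustment called 8393 of 13353 tested genes (62.9%), 31.5% higher and 31.3% lower in LLC with BMSCs, and the median log2 difference was 0.01. All 10 genes passed the filter on low counts and were among those called, 6 higher and 4 lower. In FPKM (fragments scaled by transcript length and library depth) no value of one group lay within the range of the other for any of the 10, which also held for 70.6% of all tested genes (37.0% higher and 33.7% lower in LLC with BMSCs). Since these values chose the genes, nothing is read from either count.

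**Figure D1:**
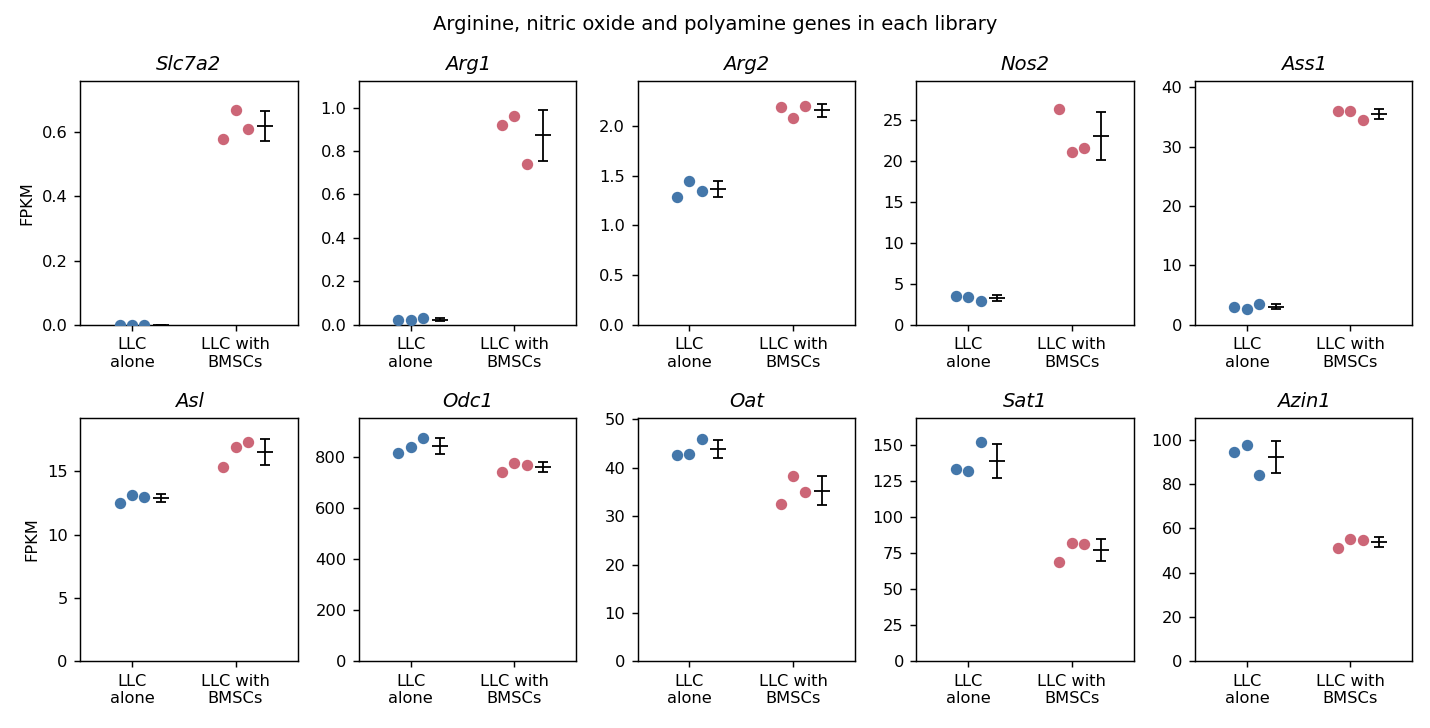
FPKM of the 10 genes in each library, with 1 point per library and replicates 1 to 3 from left to right, and the mean with its SD (n = 3) drawn beside the points. Each panel has its own axis from 0; Slc7a2 was at 0 in LLC alone, and Odc1 was at 739 FPKM or more in every library.

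Slc7a2 (chr8:40862396-40922308, plus strand, GENCODE annotation of GRCm38) encodes CAT-2, an inducible carrier of arginine, lysine and ornithine. It was not listed in any LLC alone library, that is, it had 0 counts in each, while the LLC with BMSCs libraries held 197, 225 and 204 estimated counts. Those counts gave 0.58, 0.67 and 0.61 FPKM, a low level present in every library of that group and in no library of the other. In these bulk libraries, fewer cells of a type and less RNA per cell cannot be told apart. Set against a floor of 3 counts per library, Slc7a2 was at least 63.7-fold higher in LLC with BMSCs, with 202 ± 14.2 normalized counts (SD, n = 3). Of its FPKM there, 85.4% ± 5.76 (SD, n = 3) was assigned to the transcript NM_001044740 and the rest to NM_007514. A gene on the opposite strand, Gm26584, overlaps its exons, and the counting is not stated to have used strand.

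The constitutive carrier Slc7a1 (CAT-1) was far more abundant and moved in the opposite direction. It had 82.7, 84.4 and 61.9 FPKM in LLC alone and 39.8, 34.7 and 35.1 in LLC with BMSCs, and fell with a log2 fold change of -1.08 (SE 0.125, adjusted p = 0.000205, edgeR). The groups did not overlap, and even in LLC with BMSCs Slc7a1 stood at 36.6 FPKM against 0.62 FPKM for Slc7a2. Slc3a2, the heavy chain shared by the y+L and other exchangers, fell from 241 to 102 FPKM (log2 fold change -1.25, adjusted p = 5.17e-06, edgeR). The transport group held 11 tested genes, among them Slc25a12 and Slc25a13, which carry aspartate and glutamate. Of the 11, 3 rose and 3 fell. The fall of Slc7a7 was lost in 4 of the 14 alternatives that fitted it. Its call was lost without LLC alone replicate 1 (adjusted p = 0.0568, edgeR) or without LLC with BMSCs replicate 2 or 3 (0.0729 and 0.0755). It was also lost with the close libraries of each group summed, LLC alone 1 and 2 and LLC with BMSCs 2 and 3 (0.0901). With the trend over gene length removed, Slc25a12, Slc25a13 and Atp13a3 were called lower too, which made 3 rises and 6 falls. Without that removal, the median log2 difference of the 11 genes was -0.0049, beside 0.01 over all tested genes. The 2 largest rises were Slc7a3, another cationic carrier, at 1.27 and 1.69 FPKM (0.55, adjusted p = 0.00159, edgeR), and Slc25a15, which carries ornithine into mitochondria, at 6.41 and 8.50 FPKM (0.39, adjusted p = 0.00135, edgeR).

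Arg1 (chr10:24915221-24927484, minus strand) encodes the cytosolic arginase. Its counts were 1, 1 and 2 in LLC alone and 58, 60 and 46 in LLC with BMSCs, which is 0.02, 0.02 and 0.03 FPKM against 0.92, 0.96 and 0.74 FPKM. Thus nearly all of the Arg1 reads came from the 3 libraries with BMSCs, where the gene still ranked only 10937th of 17165 genes with a signal. The summed counts of 4 and 164 gave a ratio of 38.4, with an exact 95% counting interval of 14.7 to 143 that covers counting error only.

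Arg2 (chr12:79130777-79156301, plus strand), the mitochondrial arginase, was present in both groups. It had 1.29, 1.45 and 1.35 FPKM in LLC alone and 2.19, 2.08 and 2.20 in LLC with BMSCs, a log2 difference of 0.64 (SE 0.111). In LLC alone Arg2 thus exceeded Arg1 by 60.7 ± 14.1 times in FPKM (SD, n = 3), a ratio that rests on 1 or 2 Arg1 counts per library, and in LLC with BMSCs by 2.51 ± 0.418 times. The Arg2 value is uncertain because its exons overlap those of Vti1b on the opposite strand, which had 3423 normalized counts in LLC alone and 3097 in LLC with BMSCs against 79.4 and 124 for Arg2. Both genes had fractional counts, and their sum was whole (within 0.02) in 6 of 6 libraries, so reads had been divided between them.

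Nos2 (chr11:78920787-78960254, plus strand), the inducible nitric oxide synthase, had 3.54, 3.34 and 2.91 FPKM in LLC alone and 26.4, 21.1 and 21.7 in LLC with BMSCs. The lowest library with BMSCs was well above the highest without. The difference was 7.05-fold, or 2.82 on the log2 scale (SE 0.124), and 2.64 with the trend over gene length removed. Nos2 moved from rank 9051 to rank 3649 by mean FPKM. In LLC alone replicate 3, part of the signal was assigned to the transcript NM_001313922 (1.30 FPKM), and in the other 5 libraries all of it to NM_010927. Nos2 exceeded Arg2 by 2.40 ± 0.306 times in FPKM in LLC alone and by 10.7 ± 1.21 times in LLC with BMSCs (SD, n = 3).

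Ass1 (chr2:31470207-31520672, plus strand), which makes argininosuccinate from citrulline and aspartate and is the rate-limiting step in rebuilding arginine, had 3.07, 2.57 and 3.54 FPKM in LLC alone and 36.0, 36.0 and 34.5 in LLC with BMSCs. Among the members with more than 3 counts in every library, this was the largest difference, 11.4-fold or 3.51 on the log2 scale (SE 0.108), and its coefficient of variation over the libraries with BMSCs was 2.41%. All of its signal came from 1 transcript, NM_007494. Its promoter window, printed above, held the E-box letters.

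Asl (chr5:130011258-130029247, minus strand), the next enzyme, which releases arginine and fumarate, differed little. It had 12.5, 13.1 and 13.0 FPKM in LLC alone and 15.4, 16.9 and 17.3 in LLC with BMSCs, a log2 difference of 0.33 (SE 0.0655). The order of the pair therefore turned: Ass1 stood at 0.238 ± 0.0385 of the Asl FPKM in LLC alone and at 2.16 ± 0.176 in LLC with BMSCs (SD, n = 3). The reference transcript NM_133768 held 79.7% ± 4.92 of the Asl FPKM in LLC alone and 83.5% ± 2.22 in LLC with BMSCs (SD, n = 3), a difference within the spread.

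Of 12 tested genes of nitric oxide synthesis, its cofactor and its receptor, 4 rose and 3 fell, with a median of -0.06. The fall in Qdpr was lost without LLC with BMSCs replicate 1 (adjusted p = 0.0512, edgeR). Ddah2, which breaks down methylated arginines that inhibit nitric oxide synthases, rose from 1.07 to 2.41 FPKM (log2 fold change 1.15, SE 0.124, adjusted p = 0.000143, edgeR). Gchfr, the feedback regulator of GTP cyclohydrolase, rose from 9.83 to 15.9 FPKM (0.67, adjusted p = 0.00138). Gch1, the cyclohydrolase that starts synthesis of the cofactor tetrahydrobiopterin, had 3.68 ± 0.360 and 3.59 ± 0.255 FPKM (SD, n = 3), and its difference of -0.06 did not pass (SE 0.0992, adjusted p = 0.643, edgeR). The later enzymes of cofactor synthesis were lower with BMSCs: Pts fell from 8.63 to 5.93 FPKM (-0.56, adjusted p = 0.00822) and Spr from 65.3 to 50.7 FPKM (-0.39, adjusted p = 0.0111). The endothelial synthase Nos3 (log2 difference -0.65, SE 0.349, adjusted p = 0.139, edgeR) and the neuronal synthase Nos1 (0.08, SE 0.197, adjusted p = 0.753) did not pass. With the trend over gene length removed, Nos1 turned to -0.27 and was called lower (adjusted p = 0.0488, edgeR).

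**Figure D2:**
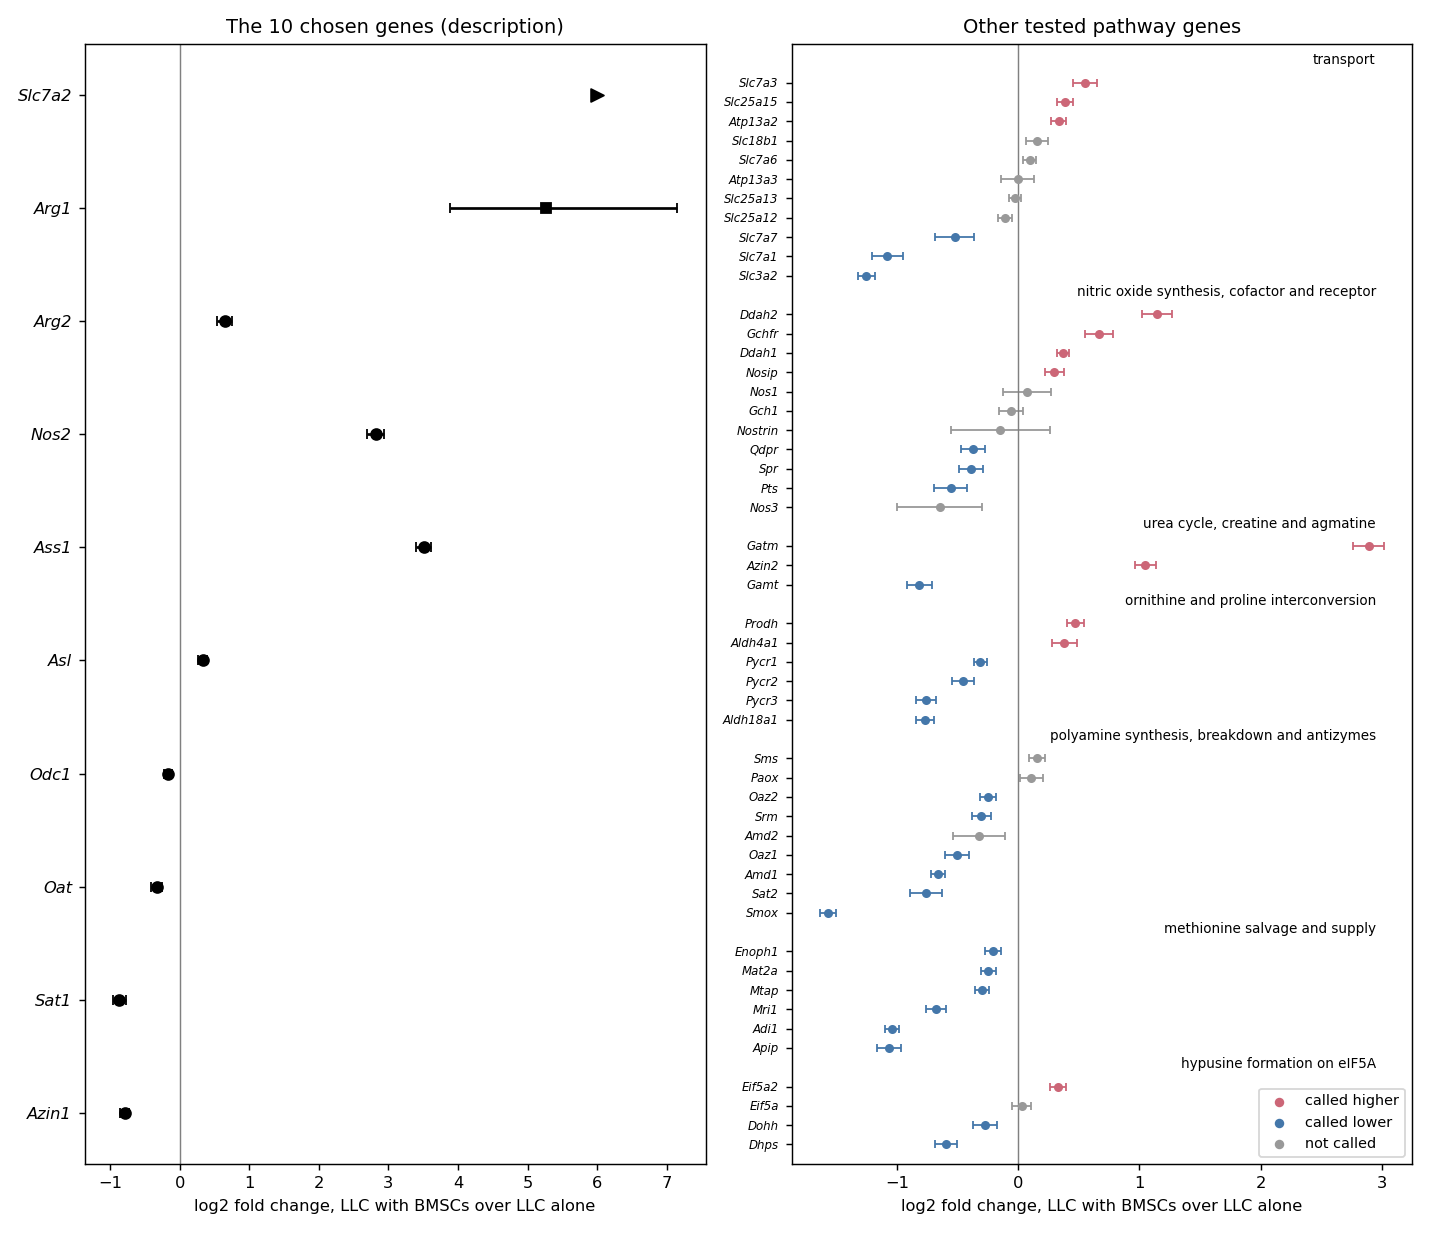
Log2 fold change, LLC with BMSCs over LLC alone, for the 10 genes (left, black) and for other tested genes of the pathway list by role (right). Bars on round points are standard errors computed from edgeR's F statistic. The triangle is the lower bound for Slc7a2 and the square is the Arg1 count ratio with its 95% counting interval; in the methionine salvage group all 6 genes lie below 0.

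Oat (chr7:132557478-132576398, minus strand) interconverts ornithine and glutamate semialdehyde. It had 42.7, 42.8 and 45.9 FPKM in LLC alone and 32.5, 38.3 and 35.0 in LLC with BMSCs, a log2 difference of -0.34 (SE 0.0748) with no overlap between the groups. In its promoter window stood the interferon-type letters, printed above. The genes around it in ornithine and proline metabolism were all called, 2 of 6 higher and 4 lower (median -0.38). Those that build proline fell, among them Aldh18a1, which makes glutamate semialdehyde, from 87.7 to 52.2 FPKM (-0.77, SE 0.0705, adjusted p = 6.30e-05, edgeR), and Pycr3, a reductase that forms proline, from 28.3 to 16.98 FPKM (-0.76, adjusted p = 0.000148). Those that break it down rose, Prodh from 10.6 to 14.9 FPKM (0.47, adjusted p = 0.000631) and Aldh4a1 from 0.973 to 1.28 FPKM (0.38, adjusted p = 0.0129). Aldh4a1 lost its call without LLC with BMSCs replicate 2 (adjusted p = 0.0564, edgeR) and with the close libraries of each group summed (0.0545).

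In the urea cycle, creatine and agmatine group, 3 of 7 genes passed the filter and all 3 were called. Gatm, which moves the amidino group of arginine to glycine and yields ornithine, rose from 0.23 to 1.71 FPKM (log2 fold change 2.89, SE 0.128, adjusted p = 1.81e-06, edgeR). Gamt, which completes creatine, fell from 9.99 to 5.78 FPKM (-0.81, adjusted p = 0.000261). Azin2, an antizyme inhibitor, rose from 3.90 to 8.20 FPKM (1.05, adjusted p = 3.42e-05). The hepatic urea cycle genes Cps1 and Nags were too low to be tested, and Otc had no row.

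Odc1 (chr12:17544794-17551505, plus strand), the first and rate-limiting enzyme of polyamine synthesis, was the most abundant of the 10 genes in both groups. It had 813, 840 and 875 FPKM in LLC alone and 739, 776 and 766 in LLC with BMSCs. The groups did not overlap but lay close, with a log2 difference of -0.17 (SE 0.0547) that ranged from -0.20 to -0.13 with 1 library left out. It ranked 103rd of 17237 genes in LLC alone and 93rd of 17165 in LLC with BMSCs. Its counts were fractional in all 6 libraries, as happens when reads are shared between features.

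Azin1 (chr15:38487427-38519266, minus strand), the inhibitor that frees ornithine decarboxylase from antizyme, was lower with BMSCs. It had 94.5, 97.7 and 83.8 FPKM in LLC alone and 51.1, 55.2 and 54.6 in LLC with BMSCs, a log2 difference of -0.80 (SE 0.0716) that was -1.02 with the trend over gene length removed. Odc1 exceeded Azin1 by 9.21 ± 1.06 times in FPKM in LLC alone and by 14.2 ± 0.244 times in LLC with BMSCs (SD, n = 3). The exons of Azin1 overlap those of Gm49077 on the opposite strand.

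Sat1 (chrX:155213132-155216449, minus strand), the acetyltransferase that marks spermidine and spermine for breakdown or export, had the largest decrease of the 10 as fitted over all 6 libraries, though Azin1 had the larger one without LLC alone replicate 3 (-0.85) and with the trend over gene length removed. Sat1 had 133, 132 and 152 FPKM in LLC alone and 68.8, 82.0 and 81.8 in LLC with BMSCs, a log2 difference of -0.87 (SE 0.0917), or -0.72 with the trend over gene length removed and -0.80 without LLC alone replicate 3. Odc1 exceeded Sat1 by 6.07 ± 0.316 times in FPKM in LLC alone and by 9.86 ± 0.760 times in LLC with BMSCs (SD, n = 3).

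The 2 transcripts of Sat1 did not change in proportion. NM_009121 had 130 ± 11.4 FPKM without BMSCs and 76.1 ± 7.62 FPKM with them (SD, n = 3). NM_001291865, which is 110 bases longer, had 9.86, 9.13 and 9.74 FPKM in LLC alone and 1.51, 1.70 and 1.05 in LLC with BMSCs. Its share of the gene was 7.40%, 6.93% and 6.39% in LLC alone and 2.19%, 2.07% and 1.28% in LLC with BMSCs, so the lowest library without BMSCs was above the highest with them. These shares are estimates by the authors' counter for a minor transcript. Among the 4 transcripts of Azin1, NM_018745 held 54.8% ± 2.77 and 53.1% ± 2.33, within the spread. The transcript named BGI_novel_T002646 went from 6.90% ± 0.641 to 4.37% ± 0.406 (SD, n = 3), and NM_001102458 stood at 27.2% ± 1.47 and 31.3% ± 2.53.

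**Figure D3:**
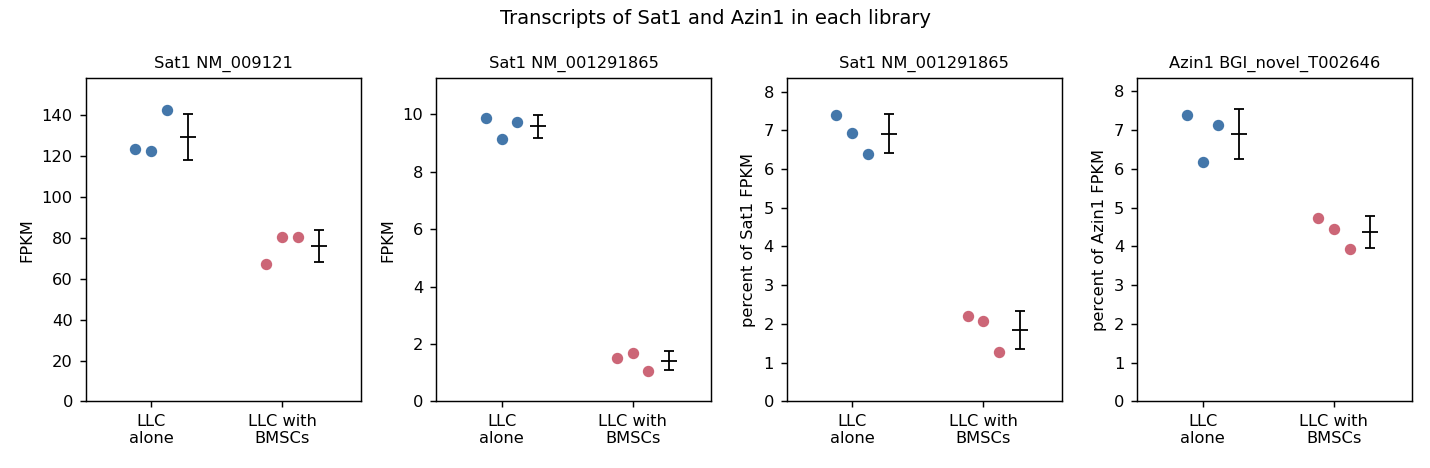
FPKM of the Sat1 transcripts NM_009121 and NM_001291865, and the percent of the gene's FPKM held by NM_001291865 of Sat1 and by BGI_novel_T002646 of Azin1, with 1 point per library and the mean with its SD (n = 3) beside them. The share of NM_001291865 lies at 6.39% or above in LLC alone and at 2.19% or below in LLC with BMSCs.

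The other genes of polyamine synthesis, breakdown and antizymes had 0 of 9 tested members higher and 6 lower. Of all tested genes, 31.5% were called higher and 31.3% lower. The antizyme inhibitor Azin2, which rose, was listed with the urea cycle group and is not among the 9. The median of the 9 was -0.32 on the log2 scale. The largest fall was in Smox, which oxidises spermine to spermidine. It had 35.7, 36.9 and 41.1 FPKM in LLC alone and 13.0, 12.7 and 12.1 in LLC with BMSCs (log2 fold change -1.57, SE 0.0675, adjusted p = 1.53e-06, edgeR). Sat2, a relative of Sat1, fell from 4.42 to 2.41 FPKM (-0.76, adjusted p = 0.00143). Amd1, which makes the aminopropyl donor, fell from 114 to 73.1 FPKM (-0.66, SE 0.0565, adjusted p = 4.31e-05, edgeR), with the caveat that its near copy Amd2 may share reads.

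Spermidine synthase, Srm, fell from 247 to 203 FPKM (-0.30, adjusted p = 0.0114, and 0.0542 without LLC with BMSCs replicate 3, edgeR). For spermine synthase, Sms, the values were 29.2 ± 1.48 and 31.8 ± 1.84 FPKM (SD, n = 3) and the groups overlapped. Its difference of 0.15 did not pass (SE 0.0655, adjusted p = 0.0709, edgeR) and was -0.03 with the trend over gene length removed. It was called higher with library sizes in place of TMM (0.18, adjusted p = 0.0488, edgeR), without LLC alone replicate 3 (0.19, adjusted p = 0.0207) and without LLC with BMSCs replicate 1 (0.20, adjusted p = 0.0346). Antizymes bind ornithine decarboxylase and send it to the proteasome. Both of those tested were lower, and Oaz3, at 1 to 5 counts, was too low to be tested. Oaz1 fell from 676 ± 90.2 to 485 ± 27.6 FPKM (SD, n = 3; -0.50, adjusted p = 0.00309, edgeR) and Oaz2 from 52.9 to 45.2 FPKM (-0.25, adjusted p = 0.0125, and 0.0747 with the close libraries of each group summed, where Srm also lost its call at 0.0660). With Azin1 lower and Azin2 higher, Azin1 still stood at 53.6 FPKM against 8.20 FPKM for Azin2 in LLC with BMSCs.

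Genes of methionine salvage, which recycle the byproduct of polyamine synthesis, were grouped with Mat2a, listed under supply. Of this group, 6 of 6 were called lower (4 of 6 with the close libraries of each group summed), beside 31.3% of all tested genes. The median of the 6 was -0.49. Enoph1 was the least firm of them and lost its call without LLC with BMSCs replicate 1 (adjusted p = 0.0723, edgeR) or 3 (0.0587). Apip fell from 13.3 to 6.48 FPKM (-1.06, SE 0.1004, adjusted p = 7.14e-05, edgeR) and Adi1 from 185 to 91.2 FPKM (-1.04, SE 0.0588, adjusted p = 5.54e-06). In hypusine formation, the use of spermidine to modify the translation factor eIF5A, 1 of 4 genes rose and 2 fell. Eif5a2 rose from 3.08 to 3.92 FPKM (0.33, adjusted p = 0.00344, edgeR), which was lost with the trend over gene length removed (0.10, adjusted p = 0.139), where Eif5a was called higher instead (0.15, adjusted p = 0.00759). Dhps fell from 36.7 to 24.7 FPKM (-0.60, adjusted p = 0.000796) and Dohh from 55.4 to 46.6 FPKM (-0.27, adjusted p = 0.0433), the latter without a call in 8 of 16 alternatives, among them the absence of LLC with BMSCs replicate 1, 2 or 3 (adjusted p = 0.0947, 0.104 and 0.119).

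Over the whole pathway list of 60 genes besides the 10, 58 had a row and 51 were tested. Of these, 12 rose and 25 fell, and 14 did not pass. The share called was 72.5%, beside 62.9% of all tested genes, and the median log2 fold change was -0.24, beside 0.01. Of the 37 calls, 27 held in every alternative in which the gene was fitted. The list was written with earlier results of these libraries known, so its counts are a description.

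By FPKM, the order in LLC alone was Odc1, Sat1, Azin1, Oat, Asl, Nos2, Ass1, Arg2, Arg1 and Slc7a2, and the ranges of Nos2 and Ass1 overlapped there. In LLC with BMSCs, Ass1 moved from place 7 to place 4 and Asl from place 5 to place 7. The ranges of Ass1 (34.5 to 36.0 FPKM) and Oat (32.5 to 38.3 FPKM) overlapped, and no other neighbours in either order did. The 3 most abundant genes and the 3 least abundant ones kept their places.

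Because Slc7a2, Arg1 and Nos2 are also genes of myeloid cells, the marker lists of other cell types are given beside them, as summed CPM (counts scaled to a common library size). Macrophage markers, 15 of 16 with a row, summed to 28.5 to 31.8 CPM in LLC alone and 41.6 to 43.6 CPM in LLC with BMSCs. Adgre1 had 0 counts in each LLC alone library and 60, 79 and 63 in LLC with BMSCs, and Itgam had 0, 0 and 5 against 241, 231 and 240. C1qa, C1qb and C1qc were at 3 counts or fewer in every library, and Cd68 fell (log2 fold change -0.89, adjusted p = 0.000501, edgeR).

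Neutrophil markers, 11 of 12 with a row, summed to 0.476 to 0.807 CPM and to 23.5 to 26.6 CPM. S100a8 had 0, 2 and 1 counts in LLC alone and 254, 300 and 302 in LLC with BMSCs, while Ly6g was at 4 counts or fewer throughout. Lymphocyte markers, 7 of 9 with a row, summed to 0.390 to 0.542 and 2.52 to 2.77 CPM, and Ptprc, the leukocyte common antigen, had 3, 8 and 8 counts in LLC alone and 96, 112 and 103 in LLC with BMSCs. Endothelial markers, 7 of 7 with a row, summed to 1.06 to 1.28 and 1.35 to 1.82 CPM.

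Markers of BMSCs or fibroblasts, 10 of 10 with a row, summed to 361 to 429 CPM in LLC alone and 798 to 846 CPM in LLC with BMSCs. Much of this sum came from Col3a1, with 10962, 8030 and 9337 counts in LLC alone and 24924, 24096 and 23863 in LLC with BMSCs. Eng had 4636, 3369 and 4151 counts against 5787, 5018 and 4794. Both were thus high without BMSCs, and the sum was not taken as a measure of BMSC content. Col1a1 had 2, 4 and 4 counts in LLC alone and 586, 499 and 477 in LLC with BMSCs, and Thy1 was at 2 counts or fewer in every library. Of the epithelial markers fixed for the label of the sorted line, which summed to 157 to 177 CPM in LLC alone and 189 to 197 CPM in LLC with BMSCs, Krt8 was strong (95.3 and 110 FPKM). Krt18 had 2, 4 and 8 counts in LLC alone and 41, 37 and 37 in LLC with BMSCs, whereas Epcam, Cdh1, Krt7 and Krt19 were at 5 counts or fewer in every library.

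With BMSCs, Arg1 stood at 1.05 to 1.36 CPM, Slc7a2 at 4.42 to 5.10 CPM, Nos2 at 86.4 to 108 CPM and Ass1 at 53.8 to 56.2 CPM. Per length, the macrophage list summed to 22.55 to 24.04 FPKM and the neutrophil list to 44.3 to 53.1 FPKM in these libraries. In LLC alone these sums were 18.23 to 21.37 FPKM and 0.29 to 0.64 FPKM. Much of the macrophage sum came from Cd14, at 9.49 FPKM in LLC alone and 10.09 in LLC with BMSCs (adjusted p = 0.587, edgeR). Cd68 added 5.55 and 3.03 FPKM and Lyz2 3.08 and 4.71, so the sum was not taken as a measure of macrophage content. Most of the neutrophil sum with BMSCs came from S100a8 and S100a9, at mean levels of 20.2 and 22.4 FPKM. In the same libraries Ass1 had 34.5 to 36.0 FPKM and Nos2 21.1 to 26.4 FPKM. The size of each sum depends on the genes listed, so Ass1 and Nos2 were not ranked against the sums. The part of other cells in the values of the 10 genes was not tested.

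**Figure D4:**
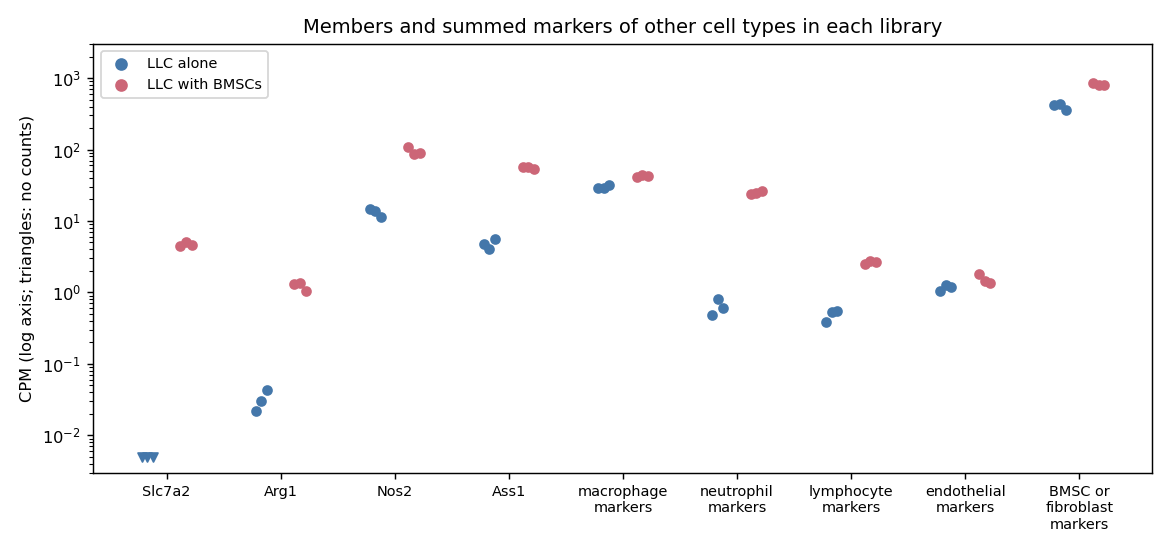
CPM of Slc7a2, Arg1, Nos2 and Ass1 and summed CPM of 5 marker lists on a log axis, with 1 point per library, blue for LLC alone and red for LLC with BMSCs. Triangles mark the 0 counts of Slc7a2 in LLC alone, drawn at the foot of the axis; the neutrophil sum goes from at most 0.807 to at least 23.5 CPM.

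The genes whose pattern over the 6 libraries was most like that of 3 of the genes were found by Euclidean distance in log2 CPM, centred on each gene's mean. A prior count of 2 was added before the log. It shrinks the differences of Slc7a2 and Arg1, which had 0 to 2 counts per library in LLC alone. Their nearest genes therefore need not share the bound or ratio given above. The distance also holds the difference between the groups that chose the genes, so it is a description only. Nearest to Slc7a2 were Oas2 (distance 0.384), Parp14 (0.456) and Il1a (0.456), each at 0.167 FPKM or less in LLC alone and at 1.997, 15.7 and 5.24 FPKM in LLC with BMSCs. Nearest to Arg1 were Mmp3 (0.407), Apol9b (0.472) and Itgb3 (0.488), of which Mmp3, a secreted matrix protease, went from 31.1 to 510 FPKM. Nearest to Odc1 were Hdhd2 (0.0271), Rhob (0.0314) and Lhfp (0.0359), with mean levels of 9.33, 123 and 39.9 FPKM in LLC alone and 8.28, 110 and 36.4 in LLC with BMSCs.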

How the data were processed

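RNA of sorted LLC-RFP cells was sequenced in 3 LLC alone and 3 LLC with BMSCs libraries, grouped by the labels' agent. Per gene and transcript, the authors deposited estimated counts (not whole where reads were shared) and FPKM, which divides by length and depth and so shifts with library composition. The submitters' processing notes name HISAT, StringTie, Cufflinks, GATK and mm8 without roles; the counting program and its strand setting were not given in the sources used here. Coordinates came from GENCODE and RefSeq on GRCm38 and were joined by gene identifier only, and the deposited files gave no positions.

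Genes absent from a library's file were taken as 0. Counts were rounded and tested in R 4.3.3 with edgeR 4.0.16 (TMM, filterByExpr, quasi-likelihood F test, Benjamini-Hochberg over all tested genes, threshold 0.05), the standard errors coming from the same fit. Alternatives used DESeq2 1.42.0, limma 3.58.1 on log2(FPKM + 1) and log2(FPKM + 0.1), other scalings and filters, removal of the trend over gene length, a replicate block, and each library left out. Exact two-sided permutation of 3 against 3 libraries cannot go below 0.1 and was not used. The code was tested on simulated data.

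The 10 genes, the pathway list and the marker lists were chosen with earlier results of these data known. Named pathway genes were, per role, up to 2 largest rises and 2 largest falls among called genes of at least 1 FPKM in a group, plus 9 fixed partners of the members (Slc7a1, Gch1, Amd1, Srm, Sms, Smox, Oaz1, Oaz2 and Azin2). Slc7a7, Slc25a12, Slc25a13, Atp13a3, Qdpr, Enoph1, Eif5a, Oaz3, Nos1 and Nos3 were named after their values were seen. The pathway counts include 1 gene that is not reported here. Like genes had at least 100 normalized counts. Slc7a2 and Arg1 got a bound and a count ratio, since their LLC alone libraries held 0 to 2 counts. Nothing states that libraries came from separate mice, so p-values measure the spread between these libraries, which may be technical. Same-numbered libraries did not deviate together (correlations of 0.08, -0.11 and 0.06), so numbers were not taken as pairs.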

Additional observations from a re-analysis of the deposited data

How the results depend on the processing

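Of 17 alternatives, 16 were separate fits and 1 was an added threshold on the log2 difference. None of 154 values of the 10 genes under the 16 fits changed direction. In these fits 7 to 10 of the genes were called, the 7 where limma tested 8 of them. Odc1 had no call in 8 of 16 alternatives: both limma fits, the replicate block, the summing of close libraries, and leaving out LLC alone replicate 2 or any LLC with BMSCs library. Where the log2 difference also had to be 1 or more in size, which 15.8% of tested genes met, 4 of the 10 genes, 3 higher and 5 lower pathway genes passed, fewer by construction. Leaving out 1 library at a time gave 9 to 10 called genes, 11 to 14 higher and 21 to 26 lower pathway genes. Slc7a2 and Arg1 could not be tested by limma or with at least 10 counts in every library. Removing the trend over gene length gave 30 lower pathway genes, with a median log2 difference of -0.24. The replicate block gave 9 called genes, 12 higher and 25 lower pathway genes; the numbers do not pair the libraries. Summing the close libraries (LLC alone 1 and 2, LLC with BMSCs 2 and 3), an alternative chosen after seeing the data, gave 8 called genes, without Odc1 and Asl, and 10 higher and 20 lower pathway genes. No pathway gene changed sign while called. Depth limits Arg1 and Slc7a2, whose LLC alone values are at or under 3 counts.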
